A study of Mus musculus with 30 samples.

Results

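Klf9, Tsc22d3, Fkbp5, Sgk1, Errfi1, Mt1, Mt2 and Nfkbia are 8 genes that glucocorticoid hormone induces directly through its receptor in many cell types. They were followed here in newborn mice lacking ERRγ, a nuclear receptor of the estrogen-related family that drives genes of mitochondrial energy metabolism. All probe sets that the array annotation assigns to 1 of these symbols were taken, whatever their level, which gave 22 probe sets of 22626 used and 8 genes of 12393. Klf9 had 7 probe sets, Nfkbia 4, Tsc22d3 3, Fkbp5, Errfi1 and Mt1 2 each, and Sgk1 and Mt2 1 each. None of the 691 probe sets with several symbols carried a member's name.

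Affymetrix MOE430A arrays were hybridized with total RNA from 5 tissues (stomach, salivary tissue, liver, kidney and brain), with 3 wild-type and 3 ERRγ-null arrays per tissue and 30 arrays in all. The labels give every mouse, wild-type or null, as neonatal, of mixed SV129/C57BL/6 background and of unknown sex, untreated, fed standard chow, and with RNA taken by Trizol. The sources used here do not give how or in which cells Esrrg was deleted, and its probe set does not check the genotype labels. The values are log2 MAS5 signals, so a difference of 1 is a doubling. Whether the 3 arrays of a group stand for 3 animals is not in the labels. A p-value here therefore covers only the spread among these samples, part of which may be technical. In bulk tissue, fewer cells of a type and less RNA per cell cannot be told apart.

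In rodents the adrenal glucocorticoid is corticosterone. Unliganded receptor, encoded by Nr3c1, is held in the cytoplasm by heat shock protein chaperones and immunophilins; with hormone it moves to the nucleus and binds response elements built as inverted repeats. Its early targets include genes that feed back on the pathway and others that act in metabolism, salt transport, inflammation and metal handling, and in newborns the hormone takes part in the metabolic switch at birth. Each of the 8 genes also answers to other signals.

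Promoter windows of 250 bases before to 50 bases after each annotated start were available for all 8 genes, 16 windows in all, from RefSeq on GRCm38.p6. Both strands were searched for the letters of 5 kinds of element, and a match is a description of the letters only. The full glucocorticoid response element, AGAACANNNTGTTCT, stood in 3 of 32851 windows (0.00913%), and 1 of the 3 belonged to Sgk1. The window, chr10:21993640-21993939 on the plus strand, is shown because it is the 1 member window with the full element, in capitals, which begins 189 bases before the start site.

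Sgk1: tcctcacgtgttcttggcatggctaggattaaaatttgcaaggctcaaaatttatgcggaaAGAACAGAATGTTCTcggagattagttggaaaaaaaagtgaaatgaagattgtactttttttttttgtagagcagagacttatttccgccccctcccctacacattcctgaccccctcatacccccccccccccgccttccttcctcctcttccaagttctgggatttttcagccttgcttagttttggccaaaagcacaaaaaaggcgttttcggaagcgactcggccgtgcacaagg

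The hexamer AGAACA, 1 arm of the full element, was matched in 4 member windows, 3 of Sgk1 and 1 of Tsc22d3, and in 19.0% of all windows. The metallothionein genes are the members known for metal response elements, and their windows are shown for the core of that element, TGCACNC or TGCGCNC, in capitals on either strand. Windows with at least 3 such matches made up 1.97% of all windows, and Mt1, at chr8:94178839-94179138, held 3 and Mt2, at chr8:94172368-94172667, held 4. Both lie on the plus strand, Mt2 ahead of Mt1.

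Mt1: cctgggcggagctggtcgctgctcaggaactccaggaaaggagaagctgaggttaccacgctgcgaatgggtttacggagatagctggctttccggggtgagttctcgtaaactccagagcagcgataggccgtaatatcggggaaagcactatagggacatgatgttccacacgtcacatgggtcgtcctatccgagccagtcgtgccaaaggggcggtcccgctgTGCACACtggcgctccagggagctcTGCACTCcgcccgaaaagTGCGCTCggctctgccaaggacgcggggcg

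Mt2: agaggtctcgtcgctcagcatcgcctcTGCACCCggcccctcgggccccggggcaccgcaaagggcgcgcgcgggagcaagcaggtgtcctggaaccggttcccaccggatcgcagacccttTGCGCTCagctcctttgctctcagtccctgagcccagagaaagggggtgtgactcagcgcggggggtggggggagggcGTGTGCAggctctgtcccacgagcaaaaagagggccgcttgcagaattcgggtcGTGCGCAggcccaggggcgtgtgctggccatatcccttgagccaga

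Nfkbia encodes the inhibitor of NF-kB and is known as a target of NF-kB itself. Its window, chr12:55492598-55492897 on the minus strand, held 1 match to a kappaB site, searched on either strand as GGGA and TTTCC with any 1 base between them and shown in capitals, a motif chosen after the data were seen and present in 0.411% of all windows.

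Nfkbia: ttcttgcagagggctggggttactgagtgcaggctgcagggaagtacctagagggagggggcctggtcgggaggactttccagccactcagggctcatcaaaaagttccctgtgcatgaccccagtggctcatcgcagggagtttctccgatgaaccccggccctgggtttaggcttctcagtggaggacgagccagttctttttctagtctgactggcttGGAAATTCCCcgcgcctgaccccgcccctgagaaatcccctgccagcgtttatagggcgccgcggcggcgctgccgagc

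The core of the ERR response element, AAGGTCA, was matched in 2 member windows, both of Sgk1, and in 4.72% of all windows. The windows of Klf9, Fkbp5 and Errfi1 held no match to any of these letters.

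Member genes rose in null stomach, salivary tissue, liver and kidney, with the largest median difference in stomach, and none was called in brain. A probe set was tested where its mean over the 6 arrays of a tissue reached the 40th percentile, at 5.25 to 5.39, and called at an adjusted p under 0.05 (limma, Benjamini-Hochberg over all tested probe sets of the tissue). The members were chosen with earlier results of these data known, so shares of all probe sets, here and below, give scale and no independent test. In stomach, 17 of 17 tested member probe sets rose, against 11.2% of all tested probe sets, and each of the 8 genes was among them. In salivary tissue 13 of 17 rose (3.50% of all), standing for 6 genes. In liver 10 of 19 rose (3.47% of all), standing for 6 genes, and in kidney 9 of 17 (0.412% of all), standing for 7. In brain 0 of 16 were called by limma, as were 0.0% of all probe sets, but 15 of the 16 differences lay above 0 and 11 had an unadjusted p under 0.05, against 4.64% of all probe sets that were higher at that level. No member probe set fell in any tissue, where 12.2% (stomach), 4.72% (salivary tissue), 3.46% (liver), 0.368% (kidney) and 0.0% (brain) of all probe sets did. The median difference of the tested members was 1.42 in stomach, 1.22 in salivary tissue, 0.90 in kidney, 0.80 in liver and 0.46 in brain, where the median of all tested probe sets was 0.01 to 0.03. Of the tested members, 1 in brain (Tsc22d3 1425281_a_at), 2 in stomach (Klf9 1436763_a_at and Fkbp5 1448231_at) and 1 in salivary tissue (Klf9 1436763_a_at) had a wild-type mean under the level of the filter. They were tested only through their higher null values, so their place in these counts was partly fixed by the filter. These counts are also not counts of all 22. Of the 7 Klf9 probe sets, 3 (1452723_at, 1436952_at and 1422264_s_at) were too dim to be tested in any tissue. Counts per tissue depended on single arrays. In kidney, 0 calls by limma remained without wild-type array 1 or 2, or null array 1, where 0.0221% to 0.081% of all probe sets were called higher. The count was 1 without wild-type or null replicate 3 (0.0663% and 0.0884% of all) and 14 without null replicate 2 (1.1% of all). In liver the count was 4 without wild-type replicate 2 (1% of all) and 6 without wild-type replicate 3 (0.766% of all). It was 4 without null replicate 1 (0.906% of all) and 3 without null replicate 3 (0.854% of all). In salivary tissue the count was 8 and 6 without wild-type replicates 1 and 2 (1.54% and 0.965% of all). It was 8 and 7 without null replicates 1 and 3 (1.3% and 1.24% of all). In stomach the count stayed between 13 and 17, against 4.76% to 12.5% of all.

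Values of RNA quality or of other tissues differed with genotype in stomach, liver, salivary tissue and brain. In stomach the gap from 3' to 5' control probe sets, taken as the mean for Gapdh and Actb, came to 2.08 ± 0.44 (SD, n = 3) in wild-type and to 3.22 ± 0.34 in null arrays, and with the Gapdh gap as a covariate 0 of 17 members passed by limma, as did 0 of all probe sets in that direction, with the 17 differences between 0.31 and 2.32. In liver the Gapdh gap itself did not overlap between the groups, at 4.25, 4.46 and 4.81 (wild-type) against 4.16, 4.11 and 3.91 (null). With it as a covariate all 10 liver calls were lost and 0 of all probe sets were called by limma. Of the liver differences, those of Klf9 1456341_a_at (0.29), Mt2 (0.11) and Mt1 1422557_s_at (-0.07) were then far smaller, while those of Sgk1 (2.12), Errfi1 1416129_at (0.91) and Nfkbia 1420088_at (0.89) were not. In stomach the Gapdh gap did not overlap either, at 2.40, 3.11 and 2.28 (wild-type) against 3.97, 3.82 and 3.53 (null). In both tissues these fits therefore cannot tell the gap from genotype, for single genes or for all. Hepatocyte markers were also uneven in stomach. Alb read 5.93, 10.25 and 11.90 in the wild-type group against 6.81, 6.19 and 7.06 in null stomach, and the 8 hepatocyte markers on the array summed to 2615 to 15869 against 2071 to 3137 in linear signal, with 2 of 6 tested lower (Afp and Ambp). Without wild-type replicates 2 and 3, which had high Alb, 1 wild-type array was left, so only differences are given. The 17 were 0.65 to 2.17, with Klf9 1456341_a_at at 1.78. In salivary tissue Ucp1 of brown fat read 5.99, 4.04 and 12.14 in the wild-type group against 11.31, 12.75 and 11.02 in null arrays. The 6 fat markers on the array summed to 4376 to 15593 against 12062 to 24614, and none of the 6 tested passed. Without wild-type replicates 1 and 2, which had low Ucp1, 1 wild-type array was again left. The 17 differences were then 0.48 to 2.37, with Tsc22d3 1420772_a_at at 2.37, Klf9 1428289_at at 2.11 and Klf9 1456341_a_at at 1.82. Sgk1, highest in the wild-type salivary array of high Ucp1, differed by 0.75 there. In brain, Alb was higher in every null array (7.46, 6.21 and 6.05) than in the wild-type arrays (5.78, 5.29 and 5.62) without passing (limma, adjusted p = 0.391). Null brain replicate 1 also read 7.99 for the salivary gene Bpifa2, where the other brain arrays read 4.48 to 5.28. It had the highest brain values of Mt1, Mt2, Fkbp5, Errfi1, Tsc22d3 and Nfkbia. Without it 0 of 16 members were called by limma, as with it. In both fits 0 of all probe sets were called, so this count cannot show the part of that array in the brain differences. Skeletal muscle markers were uneven too. In salivary tissue Acta1 read 1.31, 1.74 and 4.66 in wild-type against 8.37, 8.10 and 7.52 in null arrays, with a mean under the filter. Ckm (0.85) did not pass there. In stomach Acta1 (-1.26) and Ckm (-1.19) fell and Tnni2 did not pass. Null brain replicate 1 read 8.92 for Acta1, where the other brain arrays read 4.56 to 5.38. The part of RNA quality and of liver, salivary, fat or muscle tissue in the members' rise was not tested beyond the fits above, none of which covered muscle. Of the markers listed for each tissue, the 5 of brain did not pass between genotypes. In kidney Umod fell (-1.02), 2 other markers did not pass, and the potassium channel gene Kcnj1 was too dim to test, at 2.34 in wild-type arrays. In salivary tissue Bpifa2 was high in both genotypes (12.93 and 12.81), Aqp5 fell (-0.82) and Pip rose (2.0). In liver Alb, Apoa1 and Ttr did not pass, and Cps1 (0.61) and Tat (2.58) rose. In stomach 3 of 5 fell, Atp4a (-5.04) and Atp4b (-4.81) of the gastric proton pump and Cblif (-0.76), and Tff1 rose (0.27).

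**Figure D1:**
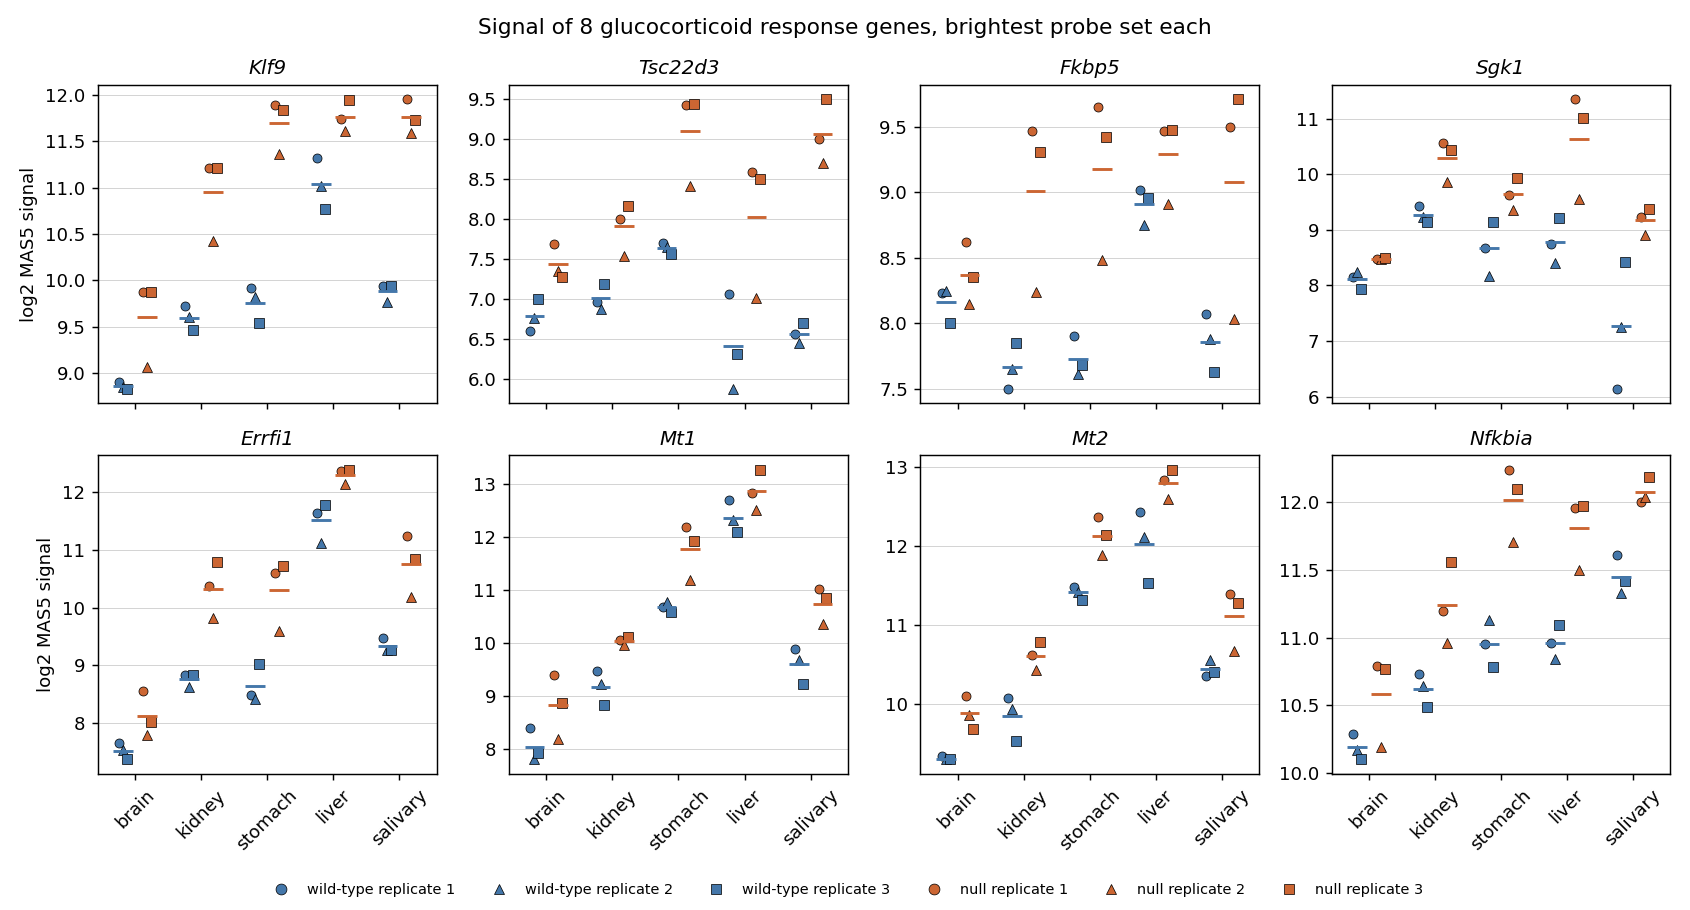
Log2 MAS5 signal of the brightest probe set of each gene, with 1 panel per gene, tissues along the x axis, blue points for wild-type and orange points for null arrays, marker shape for the replicate number and a bar for each group's mean of 3. In stomach all 3 null points lie above all 3 wild-type points in every panel, and in most groups the null triangle, replicate 2, is the lowest of the 3 null points.

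Klf9 encodes a Krüppel-like zinc finger transcription factor. Its brightest probe set, 1456341_a_at, read 9.92, 9.82 and 9.54 in wild-type stomach (replicates 1, 2 and 3, in that order for all values that follow) and 11.89, 11.36 and 11.84 in null stomach. Salivary arrays read 9.94, 9.77 and 9.94 in the wild-type group against 11.95, 11.59 and 11.73 in null tissue. In both tissues the groups lay far apart. The rise was 1.94 ± 0.16 in stomach (SE; 3.83-fold; limma, adjusted p = 0.000638) and 1.87 ± 0.13 in salivary tissue (3.66-fold; limma, adjusted p = 0.000284). Kidney went from 9.72, 9.60 and 9.46 to 11.21, 10.42 and 11.21, with no overlap, a rise of 1.35 ± 0.19 (limma, adjusted p = 0.0181). Liver, where wild-type Klf9 was already high at 11.32, 11.02 and 10.77, read 11.74, 11.61 and 11.94 in null arrays, a rise of 0.73 ± 0.15 (limma, adjusted p = 0.026). The groups did not overlap there either. Brain read 8.90, 8.85 and 8.83 against 9.87, 9.06 and 9.87. All 3 null brain values lay above the wild-type values, with replicate 2 close to them, and the difference of 0.74 ± 0.19 did not pass (limma, adjusted p = 0.362).

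The 2 next brightest Klf9 probe sets moved with the first. 1428289_at rose by 2.07 ± 0.24 in stomach, 2.07 ± 0.21 in salivary tissue, 1.52 ± 0.21 in kidney and 0.95 ± 0.16 in liver, and 1428288_at rose by 1.49, 1.68 and 0.80 in stomach, salivary tissue and liver. In kidney 1428288_at differed by 1.15 ± 0.23 (limma, adjusted p = 0.0543). The dimmer 1436763_a_at rose by 2.21 ± 0.22 in salivary tissue and 1.72 ± 0.28 in stomach, both from wild-type means under the filter. The stomach and salivary calls of all 4 held when each array was left out in turn, although 1 such stomach fit left 1436763_a_at under the filter and untested. The kidney calls of 1456341_a_at and 1428289_at were lost without any 1 array other than null replicate 2, with adjusted p up to 0.0986 and 0.0971. The liver call of 1456341_a_at was lost without wild-type array 2 or 3, or null array 1 or 3 (limma, adjusted p up to 0.0993), that of 1428288_at without any 1 array other than null replicate 2 (up to 0.0993), and that of 1428289_at without wild-type or null replicate 3 (up to 0.0533).

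Tsc22d3 encodes the glucocorticoid-induced leucine zipper, an anti-inflammatory mediator of the hormone. Its brightest probe set, 1420772_a_at, went from 6.57, 6.45 and 6.70 to 9.0, 8.70 and 9.50 in salivary tissue, a rise of 2.49 ± 0.21 (5.63-fold; limma, adjusted p = 0.000529). Among the brightest probe sets of the 8 genes in the 5 tissues, no other difference was as large. Stomach went from 7.70, 7.65 and 7.57 to 9.43, 8.42 and 9.44, a rise of 1.46 ± 0.25 (limma, adjusted p = 0.00634), and both calls held without any 1 array. Kidney read 6.96, 6.88 and 7.19 against 8.01, 7.54 and 8.17. This rise of 0.90 ± 0.17 passed narrowly (limma, adjusted p = 0.0497) and was lost without any 1 array other than null replicate 2 (up to 0.187). Liver values were scattered, 7.07, 5.88 and 6.31 against 8.59, 7.01 and 8.50, so that null replicate 2 lay under wild-type replicate 1. The liver difference of 1.61 ± 0.42 did not pass (limma, adjusted p = 0.0515). In brain the null values 7.69, 7.35 and 7.28 lay above the wild-type values 6.60, 6.76 and 7.0, and the difference of 0.65 ± 0.16 did not pass (limma, adjusted p = 0.318).

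The other Tsc22d3 probe sets ranked the tissues differently. For 1425557_x_at the rise was 1.79 ± 0.21 in liver (limma, adjusted p = 0.00396), a call that held without any 1 array, and stomach had 1.12, kidney 1.02 and salivary tissue 0.99. 1425281_a_at rose by 1.85 ± 0.39 in salivary tissue and by 1.42 ± 0.36 in stomach and differed by 1.40 ± 0.28 in kidney, 1.27 ± 0.43 in liver and 0.51 ± 0.22 in brain. The salivary and stomach calls of 1425281_a_at were each lost without null replicate 1 or 3, without wild-type replicate 2, and without wild-type replicate 1 (salivary) or 3 (stomach). The kidney and salivary calls of 1425557_x_at were lost without any 1 array other than null replicate 2, with adjusted p up to 0.0971 and 0.139. Which transcripts the 3 probe sets detect was not analysed here.

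Fkbp5 encodes an immunophilin of the receptor's chaperone complex that lowers hormone binding, and so acts as a feedback inhibitor. Its brighter probe set, 1416125_at, went from 7.90, 7.61 and 7.68 to 9.65, 8.48 and 9.42 in stomach, a rise of 1.45 ± 0.27 (2.74-fold; limma, adjusted p = 0.00774) that held without any 1 array. Kidney read 7.50, 7.65 and 7.85 in the wild-type group against 9.47, 8.24 and 9.31 in null arrays. Salivary tissue read 8.07, 7.88 and 7.63 against 9.50, 8.03 and 9.71. Null replicate 2 lay about 1 log2 unit or more under the other null arrays in both, and inside the wild-type range in salivary tissue. The differences, 1.34 ± 0.27 in kidney (limma, adjusted p = 0.0581) and 1.22 ± 0.38 in salivary tissue (limma, adjusted p = 0.0823), did not pass. In liver (9.02, 8.75 and 8.96 against 9.47, 8.91 and 9.48) and brain (8.23, 8.25 and 8.0 against 8.62, 8.15 and 8.35) the groups overlapped. The differences there, 0.38 ± 0.18 and 0.21 ± 0.14, did not pass. The dimmer 1448231_at rose in stomach by 1.08 ± 0.21 (limma, adjusted p = 0.00988), from a wild-type mean under the filter. Elsewhere it differed by -0.16 to 0.35 with overlapping groups.

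Sgk1 encodes a kinase that raises epithelial sodium transport and is a target of glucocorticoids and of aldosterone. In liver its 1 probe set went from 8.75, 8.41 and 9.22 to 11.35, 9.56 and 11.02, a rise of 1.85 ± 0.40 (3.61-fold; limma, adjusted p = 0.0285). Kidney went from 9.43, 9.24 and 9.14 to 10.56, 9.86 and 10.44, a rise of 1.02 ± 0.17 (limma, adjusted p = 0.0326). Stomach went from 8.68, 8.17 and 9.15 to 9.63, 9.35 and 9.93, a rise of 0.97 ± 0.24 (limma, adjusted p = 0.0218). In none of the 3 did the groups overlap, although null replicate 2 lay close to the highest wild-type array in liver and stomach. In salivary tissue the wild-type arrays were spread over 6.14, 7.25 and 8.42 and the null arrays were close together at 9.24, 8.90 and 9.37. The rise was 1.90 ± 0.46 (limma, adjusted p = 0.0358). Brain read 8.16, 8.24 and 7.94 against 8.48, 8.47 and 8.50, with no overlap and a difference of 0.37 ± 0.12 that did not pass (limma, adjusted p = 0.382). All 4 Sgk1 calls were lost when arrays were left out: in liver and kidney without any 1 array other than null replicate 2 (adjusted p up to 0.114 and 0.125), and in stomach and salivary tissue without wild-type array 1 or 2, or null array 1 or 3 (up to 0.073 and 0.127).

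Errfi1 encodes an inhibitor of the EGF receptor. Its brighter probe set, 1416129_at, went from 8.48, 8.42 and 9.02 to 10.61, 9.59 and 10.73 in stomach, a rise of 1.67 ± 0.29 (3.18-fold; limma, adjusted p = 0.00651). Kidney went from 8.83, 8.63 and 8.83 to 10.38, 9.82 and 10.80, a rise of 1.57 ± 0.20 (2.97-fold; limma, adjusted p = 0.0138). Salivary arrays went from 9.47, 9.26 and 9.26 to 11.25, 10.18 and 10.85, a rise of 1.43 ± 0.24 (limma, adjusted p = 0.00808). These 3 tissues reached null means of 10.31 to 10.76, under the 11.64, 11.12 and 11.79 that wild-type liver already showed. Liver rose further to 12.37, 12.14 and 12.39, by 0.78 ± 0.17 (limma, adjusted p = 0.0264). Brain went from 7.66, 7.54 and 7.37 to 8.55, 7.79 and 8.01, a difference of 0.59 ± 0.19 with no overlap that did not pass (limma, adjusted p = 0.382). The stomach and salivary calls held without any 1 array, the kidney call was lost without wild-type array 1 or 2, or null array 1 (up to 0.0971), and the liver call without wild-type array 1 or 2, or null array 1 or 3 (up to 0.101). The dim 1419816_s_at was tested in kidney (0.89 ± 0.32) and liver (0.58 ± 0.33) and passed in neither.

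Nfkbia encodes the inhibitor that keeps NF-kB in the cytoplasm. Its brightest probe set, 1420088_at, went from 10.95, 11.13 and 10.78 to 12.24, 11.71 and 12.10 in stomach, a rise of 1.06 ± 0.14 (2.09-fold; limma, adjusted p = 0.00298). Liver went from 10.96, 10.84 and 11.09 to 11.96, 11.50 and 11.97, a rise of 0.85 ± 0.15 (limma, adjusted p = 0.0133). Salivary tissue, the highest of the 5 in wild-type, went from 11.61, 11.33 and 11.42 to 12.00, 12.04 and 12.19, a rise of 0.62 ± 0.12 (limma, adjusted p = 0.0145). The groups were apart in these 3 tissues. In kidney (10.73, 10.64 and 10.49 against 11.20, 10.96 and 11.56) the difference of 0.62 ± 0.14 did not pass (limma, adjusted p = 0.079). In brain (10.29, 10.17 and 10.10 against 10.79, 10.19 and 10.77) null replicate 2 lay among the wild-type arrays and the difference was 0.40 ± 0.15 (limma, adjusted p = 0.418). The stomach call held without any 1 array. The liver call was lost without wild-type replicate 2 or null replicate 1 or 3 (up to 0.0633), and the salivary call without wild-type replicate 2 or null replicate 3 (up to 0.0886).

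Of the other 3 Nfkbia probe sets, 1449731_s_at rose in 4 tissues, by 1.70 ± 0.31 in stomach, 1.49 ± 0.23 in liver, 0.84 ± 0.16 in kidney and 1.12 ± 0.23 in salivary tissue. 1448306_at rose by 1.25 in stomach, by 1.06 in liver and by 0.67 in salivary tissue, and the dimmest, 1420089_at, by 0.86 ± 0.25 in stomach, where its groups overlapped. The stomach calls of 1449731_s_at and 1448306_at and the liver call of 1449731_s_at held without any 1 array. The other 5 calls of these probe sets did not. The kidney call of 1449731_s_at was lost without any 1 array other than null replicate 2 (adjusted p up to 0.174) and its salivary call without wild-type array 1 or 2, or null array 1. The liver call of 1448306_at was lost without wild-type replicate 2 or null replicate 1 or 3, its salivary call without any wild-type array or null replicate 3, and the stomach call of 1420089_at without wild-type array 1 or 3, or null array 1 or 3.

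Mt1 and Mt2 encode metallothioneins, small cysteine-rich proteins that bind zinc and copper. Mt1, read by 1422557_s_at, went from 10.68, 10.76 and 10.58 to 12.18, 11.18 and 11.92 in stomach, a rise of 1.09 ± 0.22 (2.12-fold; limma, adjusted p = 0.0104). Salivary arrays went from 9.88, 9.67 and 9.23 to 11.02, 10.35 and 10.84, a rise of 1.14 ± 0.21 (limma, adjusted p = 0.013), and kidney from 9.47, 9.23 and 8.82 to 10.06, 9.95 and 10.10, a rise of 0.86 ± 0.15 (limma, adjusted p = 0.037). In these 3 tissues no null value reached down to a wild-type value. The stomach call held without any 1 array, the salivary call was lost without wild-type replicate 2 or null replicate 1 or 3 (up to 0.0547), and the kidney call without any 1 array other than null replicate 2 (up to 0.125). In liver, the tissue with the highest Mt1, wild-type arrays read 12.70, 12.31 and 12.08 and null arrays 12.83, 12.50 and 13.26, with overlap. The liver difference of 0.50 ± 0.20 did not pass (limma, adjusted p = 0.175). In brain null replicate 1 stood out, with 9.39 beside 8.19 and 8.87 in the other null arrays and 8.39, 7.80 and 7.91 in wild-type. The brain difference of 0.78 ± 0.27 did not pass (limma, adjusted p = 0.395). The second Mt1 probe set, 1451612_at, was above the filter in liver only, where it rose by 1.82 ± 0.18 (limma, adjusted p = 0.00193) and the call held without any 1 array, so the 2 Mt1 probe sets disagree in size there.

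Mt2 had the most even differences of the 8 genes, 0.57 to 0.77 in all 5 tissues. Stomach went from 11.48, 11.42 and 11.32 to 12.36, 11.89 and 12.14, a rise of 0.72 ± 0.12 (limma, adjusted p = 0.00526), and kidney from 10.07, 9.94 and 9.53 to 10.62, 10.43 and 10.79, a rise of 0.77 ± 0.15 (limma, adjusted p = 0.0497). Liver read 12.43, 12.11 and 11.53 against 12.83, 12.59 and 12.96 (difference 0.77 ± 0.20; limma, adjusted p = 0.0515). Salivary tissue read 10.35, 10.56 and 10.41 against 11.39, 10.67 and 11.28 (0.67 ± 0.18; limma, adjusted p = 0.0554). Groups did not overlap in any of these tissues. In brain, where wild-type arrays were nearly equal at 9.34, 9.30 and 9.30, the null values 10.10, 9.86 and 9.68 were all higher, and the difference of 0.57 ± 0.12 did not pass (limma, adjusted p = 0.31). The stomach call held without any 1 array and the kidney call was lost without any 1 array other than null replicate 2 (up to 0.14).

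**Figure D2:**
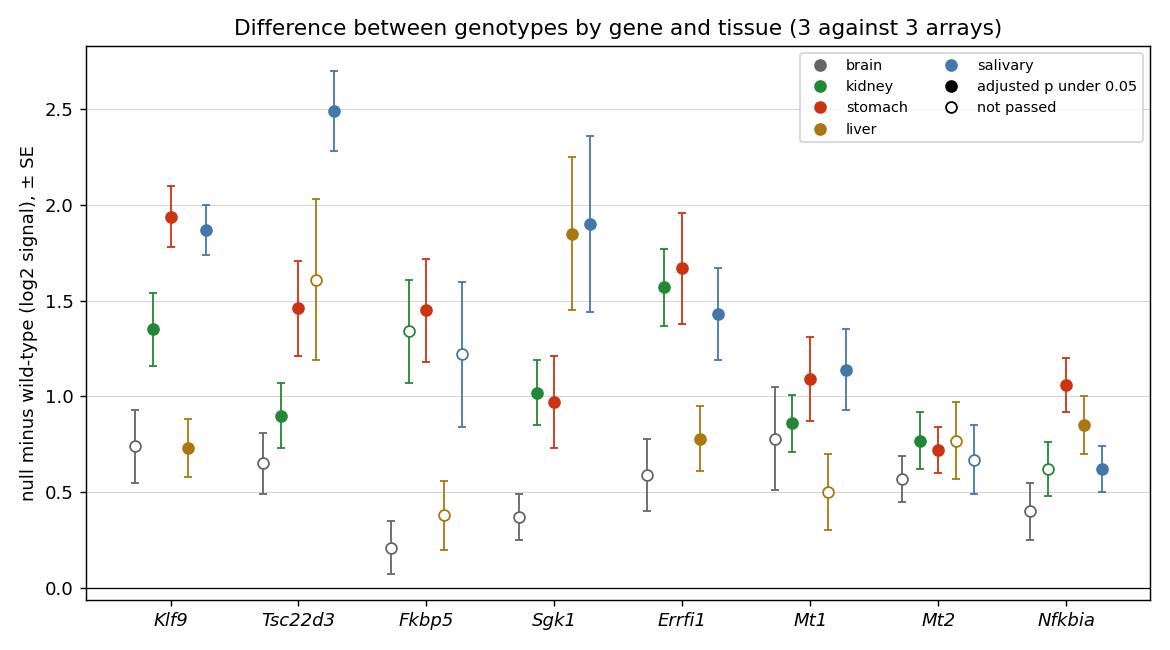
Null minus wild-type difference in log2 signal with its SE for the brightest probe set of each gene in each tissue (3 against 3 arrays), filled where the adjusted p from limma was under 0.05 and open where it was not. All 40 differences lie above 0, those of brain are open throughout, and Mt2 spans 0.57 to 0.77 where Tsc22d3 spans 0.65 to 2.49.

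Wild-type levels of the members differed between tissues, and the order is given per probe set, since levels of different probe sets cannot be compared. For Klf9, Fkbp5, Errfi1, Mt1 and Mt2, wild-type liver was highest and did not overlap the next tissue. Brain was lowest and apart from the next tissue for Klf9, Errfi1, Mt1, Mt2 and Nfkbia. Between these ends, salivary tissue, stomach and kidney overlapped their neighbours for Klf9 (means 9.88, 9.76 and 9.59), and brain, salivary tissue, stomach and kidney did for Fkbp5 (8.16, 7.86, 7.73 and 7.67). Mt2 alone had 5 levels with no overlap between neighbours, 12.02, 11.41, 10.44, 9.85 and 9.31 in liver, stomach, salivary tissue, kidney and brain. Mt1 followed the same order, with salivary tissue and kidney overlapping. Tsc22d3 was highest in stomach (7.64 ± 0.07, SD, n = 3), apart from kidney (7.01 ± 0.16), and its other 4 tissues overlapped in turn. Sgk1 ran from 9.27 ± 0.15 in kidney to 7.27 ± 1.14 in salivary tissue with every neighbour overlapping. In Nfkbia, salivary tissue (11.45 ± 0.14) was highest, and liver and stomach (10.96 and 10.95) overlapped.

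Counted by overlap alone, all 3 null values lay above all 3 wild-type values for 16 of 17 tested member probe sets in stomach, where 22.4% of all tested probe sets showed this. The count was 15 of 17 in kidney (10.1% of all), 14 of 17 in salivary tissue (13.1% of all), 12 of 19 in liver (15.3% of all) and 9 of 16 in brain (8.14% of all). The counts of stomach, salivary tissue and brain include the members named above that reached the filter only through their null values. For these the outcome was partly fixed by the filter. In no tissue did a tested member show the opposite, all null values below all wild-type values, which 20.4% (stomach), 15.1% (salivary tissue), 12.6% (liver), 9.81% (kidney) and 7.53% (brain) of all probe sets did.

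Within the null groups, replicate 2 carried the smallest rise. Measured against the wild-type mean, the median member probe set rose by 1.63, 0.79 and 1.69 in null stomach replicates 1, 2 and 3. The 3 medians were 1.64, 0.76 and 1.65 for salivary tissue, 1.12, 0.58 and 1.16 for kidney, 1.0, 0.59 and 0.99 for liver and 0.69, 0.20 and 0.40 for brain. The median of all tested probe sets stayed between -0.01 and 0.10 in the same arrays. Null replicate 2 was the lowest of the 3 null arrays for 17 of 17 tested member probe sets in kidney and in stomach, 17 of 19 in liver, 14 of 17 in salivary tissue and 13 of 16 in brain. That makes 78 of 86 in all, and over all tested probe sets null replicate 2 was lowest in 34.9%. Among the 40 values of the brightest probe sets it was lowest in 37. The median gap to the mean of null replicates 1 and 3 was 0.54. Even so, null replicate 2 lay above the wild-type mean for 17 of 17 members in stomach, 16 of 17 in kidney and salivary tissue, 16 of 19 in liver and 12 of 16 in brain. The share of all probe sets above their wild-type mean was not counted. Their median in the replicate 2 arrays was -0.01 (brain) to 0.03 (stomach).

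**Figure D3:**
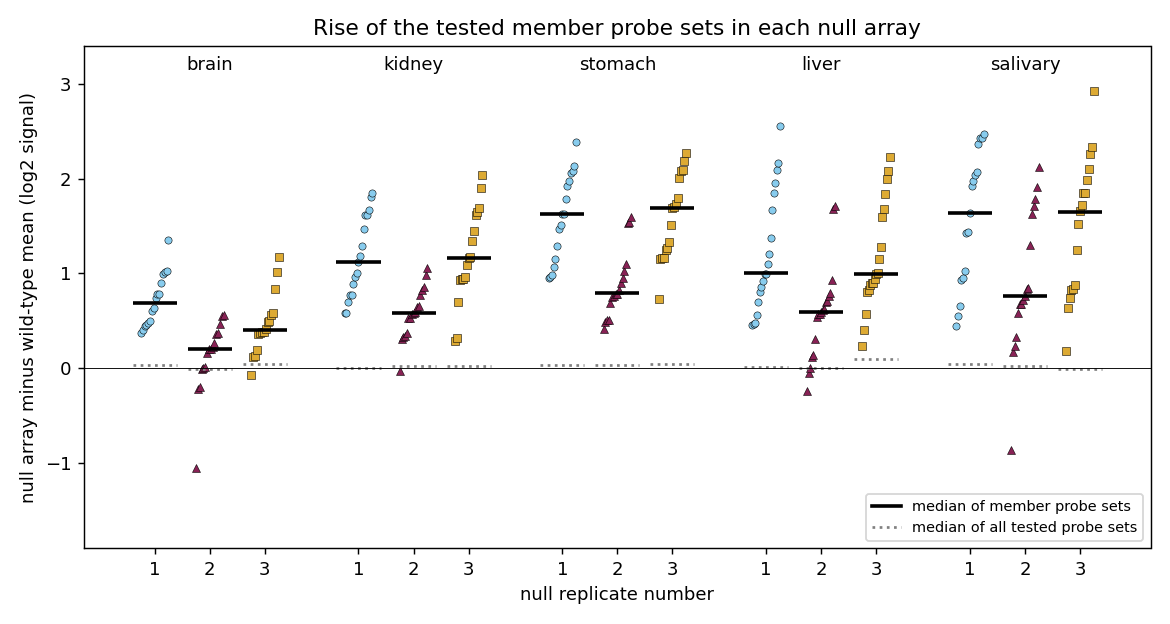
Each tested member probe set in each null array minus the wild-type mean of the tissue (log2 signal), with null replicate numbers along the x axis, points spread sideways in order of size, a black bar for the members' median and a dotted grey bar for the median of all tested probe sets. The black bar of replicate 2 is the lowest in each tissue, from 0.20 in brain to 0.79 in stomach, and the grey bars stay between -0.01 and 0.10.

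Null replicate 2 held the lowest null value of most members, so leaving it out raises their differences by construction. The counts that follow are therefore no independent support. Without null replicate 2 the counts of members that rose were 3 of 16 in brain, 14 of 17 in kidney, 17 of 17 in stomach, 15 of 19 in liver and 15 of 17 in salivary tissue. Over all probe sets the share called higher in the same fits was 12.5% (stomach), 6.47% (liver), 4.78% (salivary tissue), 1.10% (kidney) and 0.147% (brain), so it was larger than with all arrays there too. The 3 brain calls were Klf9 1456341_a_at (1.01), Klf9 1428289_at (1.08) and Nfkbia 1420088_at (0.59). The labels do not say whether arrays of different tissues with the same number share an animal. Xist, the transcript of the inactive X chromosome, was low in wild-type replicate 3 and null replicate 1 and high in the other 4 numbers, in all 5 tissues alike. Null replicates 2 and 3 were thus both high. Of the milk protein transcripts in the stomach, null Csn2 read 5.40, 7.20 and 5.25 and null Wap 5.38, 6.88 and 5.26. The wild-type stomachs read 9.29, 9.33 and 9.50 for Csn2 and 9.20, 10.06 and 10.24 for Wap. The 4 tested genes of 6 on the milk list were all lower in null stomach, with summed linear signal of 187 to 475 against 1784 to 2965. The part of feeding in the members' rise was not tested, nor was that of sex or feeding in the order of the null replicates.

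Averaged over the 5 tissues in a fit of all 30 arrays, 18 of 19 tested member probe sets rose, with all 8 genes among them, against 11.4% of all tested probe sets, and none fell, against 11.1% of all. The median average difference was 1.03, and that of all tested probe sets 0.03. The brightest probe sets rose by 1.42 ± 0.14 for Tsc22d3 (limma, adjusted p = 1.89e-07), 1.33 ± 0.09 for Klf9 (adjusted p = 8.76e-10), 1.22 ± 0.18 for Sgk1 and 1.21 ± 0.12 for Errfi1. Smaller averages were found for Fkbp5 (0.92 ± 0.15), Mt1 (0.88 ± 0.12), Nfkbia (0.71 ± 0.07) and Mt2 (0.70 ± 0.08; limma, adjusted p = 1.65e-06). The 1 probe set that did not pass was Fkbp5 1448231_at (0.37 ± 0.16; limma, adjusted p = 0.112). Of the 18 calls, 16 held when each genotype and replicate number was left out of all tissues in turn. The dim Errfi1 1419816_s_at was lost without null replicate 1 or 3 (adjusted p up to 0.119) and Mt1 1451612_at without wild-type array 1 or 3, or null array 1 or 3 (up to 0.141).

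Since the 5 tissues of a number may come from 1 animal, the arrays were also, in an analysis added after the data were seen, averaged per genotype and replicate number, which leaves 3 values against 3. Of 19 member probe sets 17 then rose, with all 8 genes among them, against 4.57% of all probe sets. For Klf9 the wild-type means were 9.96, 9.81 and 9.71 and the null means 11.33, 10.81 and 11.32, a difference of 1.33 ± 0.13 (limma, adjusted p = 0.003). For Mt2 they were 10.73, 10.67 and 10.42 against 11.46, 11.09 and 11.37 (0.70 ± 0.11; limma, adjusted p = 0.00858), and for Fkbp5 8.14, 8.03 and 8.02 against 9.34, 8.36 and 9.25 (0.92 ± 0.21; limma, adjusted p = 0.0267). All 3 null means lay above all 3 wild-type means for each of the 8 brightest probe sets, and null replicate 2 was the lowest null mean of each. The share of all probe sets that did either was not counted, so these counts have no scale.

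**Figure D4:**
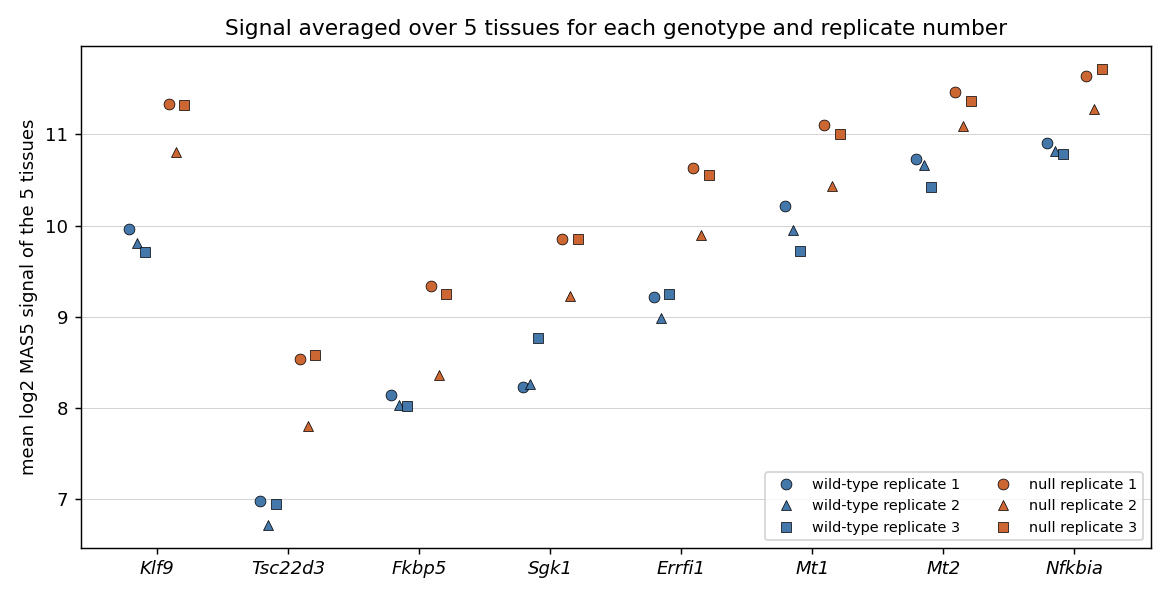
Mean log2 MAS5 signal over the 5 tissues for each genotype and replicate number, brightest probe set of each gene, blue for wild-type and orange for null. For every gene the 3 orange points lie above the 3 blue points, and the orange triangle, replicate 2, is the lowest orange point. The share of all probe sets that did so was not counted.

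The size of the rise differed between tissues for 5 of 19 member probe sets by limma's F test, against 15.3% of all tested probe sets. All 5 belonged to Klf9 or Tsc22d3, so the share is not read as a trait of the members. The 5 were 3 probe sets of Klf9 (adjusted p = 0.00424, 0.0088 and 0.0211) and 2 of Tsc22d3 (adjusted p = 0.0357 and 0.00682). Each was lost without at least 1 group's replicate number: Klf9 1456341_a_at without wild-type replicate 2 and Tsc22d3 1425557_x_at without wild-type replicate 3, Klf9 1428288_at without wild-type array 2 or 3, or null array 3, Klf9 1428289_at without any wild-type number or null replicate 1, and Tsc22d3 1420772_a_at without any number other than null replicate 2. In pairs of tissues, 12 of 190 member comparisons passed, against 4.58% over all probe sets and pairs. The members' share, 6.32%, was near that of all, and the pairs that follow are given as values of those probe sets. Over all probe sets the share was 9.52% for liver minus stomach, 8.52% for salivary tissue minus stomach and 7.47% for salivary tissue minus liver. Against brain it was 6.78% for stomach, 4.03% for liver, 2.88% for salivary tissue and 0.0479% for kidney. Against kidney it was 2.28% for stomach, 2.29% for liver and 2.03% for salivary tissue. Klf9 1456341_a_at rose more in stomach than in brain, by 1.20 ± 0.28 (limma, adjusted p = 0.012), and more in salivary tissue than in brain, by 1.13 ± 0.28 (limma, adjusted p = 0.0267). Against liver its rise was larger by 1.21 in stomach and 1.15 in salivary tissue (limma, adjusted p = 0.0076 for liver minus stomach, at -1.21, and 0.0131 for salivary tissue minus liver). For Tsc22d3 1420772_a_at the rise in salivary tissue exceeded that in brain by 1.84 ± 0.46 (limma, adjusted p = 0.026), for 1425557_x_at that in liver exceeded brain by 1.58 ± 0.29 (limma, adjusted p = 0.00185), and for Nfkbia 1449731_s_at that in stomach exceeded brain by 1.30 ± 0.38 (limma, adjusted p = 0.0381). For Sgk1, Errfi1, Fkbp5, Mt1 and Mt2 no pair of tissues passed; for Mt2 the differences between tissues were -0.10 to 0.20 with an SE of 0.27. Leaving out 1 genotype and number at a time gave 1 to 12 probe sets by the F test and 2 to 42 pairs; wild-type replicate 2 gave the fewest (1 and 2) and null replicate 2 the most (12 and 42). The other values were 3 and 5 without wild-type replicate 1, 2 and 5 without wild-type replicate 3, and 3 and 6 without null replicate 1, and 6 pairs remained without null replicate 3.

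Other genes known to be induced by glucocorticoids rose in part. Their list, too, was chosen with earlier results of these data known. Of 30 listed, 28 were on the array, and 15 of 23 tested rose in stomach with 0 lower, 15 of 25 in salivary tissue with 1 lower, 13 of 25 in liver with 1 lower, 6 of 25 in kidney with 0 lower and 0 of 21 in brain by limma. The shares of all probe sets called higher were 11.2%, 3.50%, 3.47%, 0.412% and 0.0% in the same order. The 1 lower gene was Cdkn1c, a cell cycle inhibitor, in both liver (-1.02) and salivary tissue (-0.87). Cebpd, a transcription factor, rose in 4 tissues, by 2.43 ± 0.16 in kidney (limma, adjusted p = 0.00055), 2.51 ± 0.26 in stomach and 2.67 ± 0.32 in salivary tissue among them. Kidney also showed Igfbp1 (1.85), an insulin-like growth factor binding protein, Sult1a1 (1.59), a sulfotransferase, and Usp2 (1.21), a deubiquitinase. In stomach Pdk4 (2.45), a pyruvate dehydrogenase kinase, and Fbxo32 (2.44), a ubiquitin ligase of muscle wasting, followed Cebpd, with the transporter Slc10a6 (1.54) next. Liver was led by the mTOR inhibitor Ddit4 (3.26 ± 0.56), tyrosine aminotransferase Tat (2.58 ± 0.33), the phosphatidate phosphatase Lpin1 (2.50 ± 0.37) and the cell cycle inhibitor Cdkn1a (2.38 ± 0.31). Salivary tissue was led by Pdk4 (3.94 ± 0.68, with the wild-type array of high Ucp1 at 8.97 beside 6.22 and 5.72), Rgs2 (2.69), a regulator of G protein signalling, Cebpd and Lpin1 (2.57 ± 0.16). The median of the list's tested genes was 1.15 in salivary tissue, 0.83 in stomach, 0.76 in kidney, 0.73 in liver and 0.23 in brain. Null replicate 2 was again the lowest in every tissue, with median rises of 0.56 beside 0.96 and 1.01 in stomach, 1.03 beside 1.27 and 1.25 in salivary tissue, 0.51 beside 0.86 and 0.81 in liver, 0.39 beside 0.91 and 0.90 in kidney and 0.15 beside 0.49 and 0.31 in brain.

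Among genes of the receptor and of hormone handling, 1 call was made in the 5 tissues. Of 9 on the array, 5 to 7 were tested per tissue and 1 passed: Hsd11b1, the enzyme that regenerates active hormone, fell in liver by 0.84 ± 0.20 (limma, adjusted p = 0.0377). The receptor gene Nr3c1 differed by -0.35 to 0.53 over the 5 tissues and did not pass in any. Hsd11b2, which inactivates the hormone, was lower by 1.13 ± 0.23 in kidney without passing (difference -1.13; limma, adjusted p = 0.0568). Of the receptor's chaperones and co-chaperones, 7 of 9 tested fell in stomach, against 12.2% of all probe sets. They were led by the ubiquitin ligase Stub1 (-1.07), Stip1 (-0.70), Fkbp4 (-0.69) and St13 (-0.64). Fkbp4, the counterpart of Fkbp5 in the complex, thus fell where Fkbp5 rose. In the same null stomachs the gap between 3' and 5' control probe sets was larger, as given above. Elsewhere Hspa8 rose in liver (0.52), Hsp90aa1 fell in salivary tissue (-0.65), and 0 of 9 passed in brain and in kidney by limma.

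Some partners and relatives of the members were called and others were not. For scale, the shares of all probe sets called higher were 11.2% in stomach, 3.5% in salivary tissue, 3.47% in liver, 0.412% in kidney and 0.0% in brain. The shares called lower were 12.2% in stomach and 3.46% in liver. Among 14 kinase relatives, partners and targets of Sgk1, Ndrg1, a substrate, rose in kidney (0.97) and salivary tissue (0.76). Ndrg2 (1.35) and the transcription factor Foxo1 (1.27) rose in salivary tissue. In liver Foxo3 (1.21), Nedd4l (1.09), the ubiquitin ligase of the sodium channel, Foxo1 (1.07) and Pdpk1 (0.63), which activates Sgk1, rose. In stomach Foxo3 (1.07) and Wnk1 (0.34) did. Of 9 metal response genes on the array 5 to 7 were tested, and in stomach the zinc exporter Slc30a1 (0.78) and Gclc (0.95) of glutathione synthesis rose while the metal-responsive factor Mtf1 fell (-1.10); 0 passed in the other 4 tissues. Of 19 NF-kB pathway genes on the array, 7 to 10 were tested and Birc3 in stomach (0.96) was the 1 that passed in any tissue. Of 12 genes of EGF receptor signalling, Ereg (1.06), Erbb3 (0.78) and Tgfa (0.56) rose in stomach and Erbb3 in salivary tissue (0.82). Among 12 KLF and TSC22 relatives, Klf15 rose in salivary tissue (2.01) and liver (1.75), Klf13 in both (1.05 and 1.04) and Klf6 in stomach (1.39), liver (1.06) and kidney (1.04). Klf4 (0.60), Klf7 (0.48) and Tsc22d1 (0.37) rose in stomach, and Tsc22d1 fell in liver (-0.58). Immediate early genes were called in 4 of 14 tested in stomach, 5 of 14 in liver and 4 of 13 in salivary tissue, all higher. Over all probe sets the shares called higher were 11.2%, 3.47% and 3.5% in that order. Fos rose by 1.44, 1.92 and 1.43. In kidney 0 of 11 were called and in brain 0 of 12 by limma (0.412% and 0.0% of all).

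The genes whose 5 tissue differences lay nearest to those of each member were sought among 6844 genes tested in all tissues, by root mean square distance. Klf9 was nearest to Errfi1 (0.261), and Errfi1 in turn to Klf9 and to Fkbp5 (0.301). Tsc22d3 was nearest to Klf15 (0.233), then to Sgk1 (0.385). Sgk1 lay nearest to the phosphatase gene Dusp1 (0.268) and Klf15 (0.278), and Fkbp5 to Usp2 (0.273) and Errfi1. Mt2 was nearest to the orphan receptor gene Nr4a1 (0.0858) and to Ugcg (0.103), which encodes glucosylceramide synthase; Mt1 had the same gene first (0.270). Nfkbia lay nearest to Mxd4 (0.0888) and Ugcg (0.114). Irs2 was among the 3 nearest genes of Klf9 (0.438), Tsc22d3 (0.456) and Errfi1 (0.412), and Fkbp5 was among those of Klf9 (0.461). These distances cover 5 points that share arrays between genes and say only which differences were alike.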

How the data were processed

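Arrays of total RNA were scaled with MAS5, per the submitters' processing notes, and the authors deposited the values on a log2 scale. The base was settled from the values, since the 2% trimmed mean of linear signal is 149.988 to 150.008 on every array with base 2. The sources used here name no MAS5 version. Array medians ran from 5.80 to 6.08, no 2 arrays held identical values, and 64 of 22690 probe sets were controls and left out. The number of arrays limits the precision.

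Within each tissue, lmFit and eBayes (with trend) of limma 3.58.1, run in R 4.3.3, compared null with wild-type values as deposited, for probe sets whose mean reached the 40th percentile. Adjustment was Benjamini-Hochberg over all tested probe sets, with a threshold of 0.05. A fit of all 30 arrays gave the average, the F test between tissues and 10 pairs of tissues, adjusted within each pair. Gene symbols came from the array annotation; 20380 probe sets had 1 symbol, 691 several and 1555 none. The brightest probe set of a gene is that of highest mean over all arrays. All member probe sets are named; of other lists, up to 4 genes per list and tissue by size among those called are named, with Cdkn1c, Nr3c1 and Hsd11b2 chosen after their values were seen, and so are the 3 nearest genes per member. The members and lists were chosen with earlier results of these data known. Steps were tested on simulated data. Same-numbered wild-type and null arrays deviated together (correlation over 0.1) in 1 of 15 cases, so numbers were not taken as pairs. Alternatives were no filter or the 60th percentile, a floor at log2 of 32, quantile or median normalization, no trend, covariates (Gapdh gap, Xist, Alb, Ucp1), fixed and random blocks, stricter thresholds, and tissues or arrays left out; those named as such were added after the data were seen.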

Additional observations from a re-analysis of the deposited data

Results flagged for a closer look

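The null effect differed between the 5 tissues for 5 member probe sets by limma's F test, 5 of 19 tested, against 15.3% of all probe sets, and 0 of the 5 calls held in every fit that left out 1 genotype and replicate number. Klf9 had adjusted p = 0.00424 at 1456341_a_at, 0.0211 at 1428289_at and 0.0088 at 1428288_at, and for all 3 the difference was 0.21 to 0.95 in brain and liver and 1.49 to 2.07 in stomach and salivary tissue. Tsc22d3 had adjusted p = 0.0357 at 1420772_a_at, where salivary tissue stood highest (2.49), and 0.00682 at 1425557_x_at, where liver did (1.79). The groups of 3 arrays were too small for a test of single outlying arrays.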

How the results depend on the processing

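Of 2636 alternative values of single member probe sets, 2229 kept direction and side of the threshold, 333 lost a call and 64 gained one. In 10 the sign changed, none of them a call: in brain Fkbp5 1416125_at (-0.012), Nfkbia 1420089_at (-0.31) and Klf9 1428288_at (-0.10) with Alb as a covariate, Fkbp5 1448231_at with Ucp1 (0.13) and without null replicate 2 (0.29; -0.47 to 0.29 over single arrays left out), and Nfkbia 1420089_at without wild-type replicate 1 or null replicate 1 (-0.14 to 0.19 over single arrays left out); in liver Mt1 1422557_s_at with the Gapdh 3' to 5' gap (-0.074); in salivary tissue Fkbp5 1448231_at with that gap (-0.0064) and without null replicate 1 (-0.12 to 0.78 over single arrays left out). The cause was not tested.

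Counts of members that rose moved by over 1.5 times as follows. Kidney, 9 as reported, had 0 without the filter, 1 without the trend, 5 with the Gapdh gap, 5 in a fit of all 30 arrays, 0 at adjusted p under 0.01 and 5 at a difference of at least 1. Of all kidney probe sets 0.0398%, 0.0737%, 0.169%, 0.214%, 0.0221% and 0.214% were called higher in that order, against 0.412% as reported. Stomach, 17, had 0 with the Gapdh gap and 9 with Alb, where 0% and 1.43% of all probe sets were called higher, against 11.2% as reported. Leaving out both high-Alb wild-type arrays, as chosen after seeing the data, left 1 wild-type array, so no count is given. Liver, 10, had 6 without the trend, 0 with the Gapdh gap, 2 with Ucp1, 3 at 0.01 and 5 at a difference of 1. Of all liver probe sets 2.09%, 0%, 0.633%, 0.619% and 1.68% were called higher in that order, against 3.47% as reported. Salivary tissue, 13, had 7 with Ucp1 and 6 at 0.01, where 0.825% and 0.766% of all probe sets were called higher, against 3.5% as reported. Leaving out both low-Ucp1 wild-type arrays, as chosen after seeing the data, also left 1 wild-type array, so no count is given. For the average, the F test and pairs, here and below, the share of all probe sets was not counted in the alternative fits. The average over tissues, 18, had 10 at a difference of 1. The F test, 5, had 3 at 0.01, 1 without brain, 3 without liver and, as chosen after seeing the data, 10 with a separate spread in each tissue. Pairs of tissues, 12, had 21 with a floor at log2 of 32, 6 with the Gapdh gap, 3 at 0.01, 4 without brain and 7 without stomach. Leaving out 1 array gave 0 to 3 (brain), 0 to 14 (kidney), 13 to 17 (stomach), 3 to 15 (liver), 6 to 15 (salivary tissue), 16 to 19 on average, 1 to 12 by the F test and 2 to 42 for pairs. Causes were not tested.

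With the replicate number as a block, which the check of pairing did not bear out, the counts were 0 for brain, 10 for kidney, 16 for stomach, 12 for liver, 11 for salivary tissue, 18 on average, 8 by the F test and 19 pairs. With genotype and number as a random block (correlation 0.03) the average had 18, the F test 5 and pairs 14. Dim probe sets near the filter limit what can be said of 3 of 7 Klf9 probe sets and of Mt1 1451612_at outside liver.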
